A study of Mus musculus with 8 samples.

Results

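Transcripts of 9 myeloid transcription factors, Spi1, Cebpa, Cebpb, Cebpd, Cebpe, Gfi1, Irf8, Irf4 and Klf4, were examined in whole bone marrow (BM) of leukemic mice. They were chosen by name, and all 9 are among the 13305 genes of the deposited table. RNA-seq was performed on BM of 8 C57BL/6N mice with 1 library per mouse. All 8 carry Mx1-Cre, 1 functional Dnmt3a allele (Dnmt3a+/-) and the Flt3 internal tandem duplication on both alleles (Flt3ITD/ITD), which together give acute myeloid leukemia (AML). They differ in Gab2, which encodes a docking protein downstream of Flt3: 3 AML WT mice are Gab2+/+, 2 AML HET mice are Gab2+/- and 3 AML KO mice are Gab2-/-. The comparison asks how these factors differ with the number of Gab2 alleles, and it holds no mouse without Flt3-ITD. Mx1-Cre, which removes the floxed Dnmt3a allele, acts in interferon-responsive cells of many types and was active here without an inducing agent, whereas Flt3-ITD and the Gab2 deletion are present in every cell. The age of the sequenced mice is not given in the sources used here.

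Myeloid cells acquire their identity from a small set of DNA-binding proteins that act in sequence and oppose each other. PU.1 (encoded by Spi1) and C/EBPα (Cebpa) open the myeloid program in progenitors. C/EBPε (Cebpe) and the repressor Gfi1 lead granulocyte maturation, C/EBPβ (Cebpb) and C/EBPδ (Cebpd) act in emergency granulopoiesis and in mature myeloid cells, and Irf8, Klf4 and Irf4 direct progenitors toward monocytes and dendritic cells. Loss of C/EBPα function blocks granulocyte formation in AML.

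Sequences upstream of the start site were taken from RefSeq (GRCm38.p6), where 6 of the 9 genes were matched, with 8 windows in all. Spi1, Cebpd and Cebpe had no window. Each window runs from 250 bases before to 50 after a transcription start. A window is shown for a gene that was higher in AML KO BM (Gfi1), for the gene with lower values (Irf4) and for a gene with nearly equal levels in the 3 groups (Irf8). All are 5′ to 3′ on the gene's own strand, with capitals at matches to a C/EBP motif (TTGCNNAA), an ETS motif of PU.1 relatives (GAGGAA) or a STAT motif (TTCNNNGAA). Both strands were searched.
Gfi1, chr5:107725756-107726055, minus strand: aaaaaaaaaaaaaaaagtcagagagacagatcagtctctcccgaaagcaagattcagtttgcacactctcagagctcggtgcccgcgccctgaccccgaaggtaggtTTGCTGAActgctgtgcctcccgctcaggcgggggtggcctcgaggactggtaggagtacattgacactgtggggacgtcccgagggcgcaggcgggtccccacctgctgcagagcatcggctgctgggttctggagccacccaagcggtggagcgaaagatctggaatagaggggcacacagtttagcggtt
Irf4, chr13:30748983-30749282, plus strand: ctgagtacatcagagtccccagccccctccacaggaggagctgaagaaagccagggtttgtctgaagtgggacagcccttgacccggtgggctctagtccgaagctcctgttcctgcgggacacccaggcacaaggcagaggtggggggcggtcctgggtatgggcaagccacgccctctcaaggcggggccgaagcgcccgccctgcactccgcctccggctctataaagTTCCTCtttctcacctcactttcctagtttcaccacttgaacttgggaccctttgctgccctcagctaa
Irf8, chr8:120736108-120736407, plus strand: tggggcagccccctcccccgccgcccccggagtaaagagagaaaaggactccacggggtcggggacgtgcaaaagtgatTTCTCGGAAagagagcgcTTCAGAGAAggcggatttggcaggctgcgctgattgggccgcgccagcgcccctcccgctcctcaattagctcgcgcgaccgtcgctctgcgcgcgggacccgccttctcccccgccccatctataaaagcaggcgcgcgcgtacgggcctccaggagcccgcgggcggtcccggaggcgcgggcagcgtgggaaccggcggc
The C/EBP match of Gfi1 begins 143 bases before its start, and such a match was present in 10.8% of all 32851 promoter windows. The ETS match of Irf4 begins 19 bases before its start, in the reverse orientation (28.3% of all windows). The STAT matches of Irf8 begin 171 and 153 bases before its start (8.30% of all windows). The windows shown are also the only ones with a match. These letters were not found in the other 5 windows, which include a second window each of Gfi1 and Irf8. A match describes the sequence, and binding was not measured here.

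Each library held 28009258 to 39266815 counts, and every one of the 9 genes was counted in every mouse, at 376 counts or more. Gab2, the targeted gene, was at 74.7 ± 17.0 CPM (counts scaled to a common library size, TMM-normalised) (SD) in the 3 AML WT mice, 53.3 ± 3.57 in the 2 AML HET mice and 40.8 ± 6.15 in the 3 AML KO mice. The edgeR log2 fold change of AML KO over AML WT was −0.87 (adjusted p = 0.042). Leaving out a mouse raised this adjusted p above 0.05 in 6 of 8 fits, to 0.159 without AML KO replicate 3, the exceptions being AML WT replicate 3 and AML KO replicate 2. The knockout allele removes only part of the gene, so reads on the remaining exons can still be counted. Across all genes, 235 were higher (1.77% of those tested) and 43 lower (0.323%) in AML KO than in AML WT BM. The BM libraries expressed the markers of several lineages in every mouse, and none of the listed marker genes present in the table had a count of 0 in any mouse (4 of 6 basophil and mast cell, 4 of 6 eosinophil and 8 of 9 B cell markers are in it).

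Cebpe and Gfi1, the factors of granulocyte maturation, rose in AML KO relative to AML WT BM. Cebpe was 3.40-fold higher and Gfi1 1.62-fold higher. No member was significantly lower, and the remaining 7 did not pass the adjusted threshold of 0.05, although Cebpb and Cebpd had higher and Irf4 lower values in every AML KO mouse than in every AML WT mouse. Spi1, Cebpa and Irf8 had nearly equal means in both groups. In counts, 2 of the 9 were called, both higher (1.77% of all genes were called higher and 0.323% lower). Of the 9, 5 had an unadjusted p under 0.05 (17.7% of all genes did), and 5 showed no overlap between the groups (22.1% of all genes). The median log2 fold change was 0.07 over the 9 genes and −0.02 over all genes tested.

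**Figure D1:**
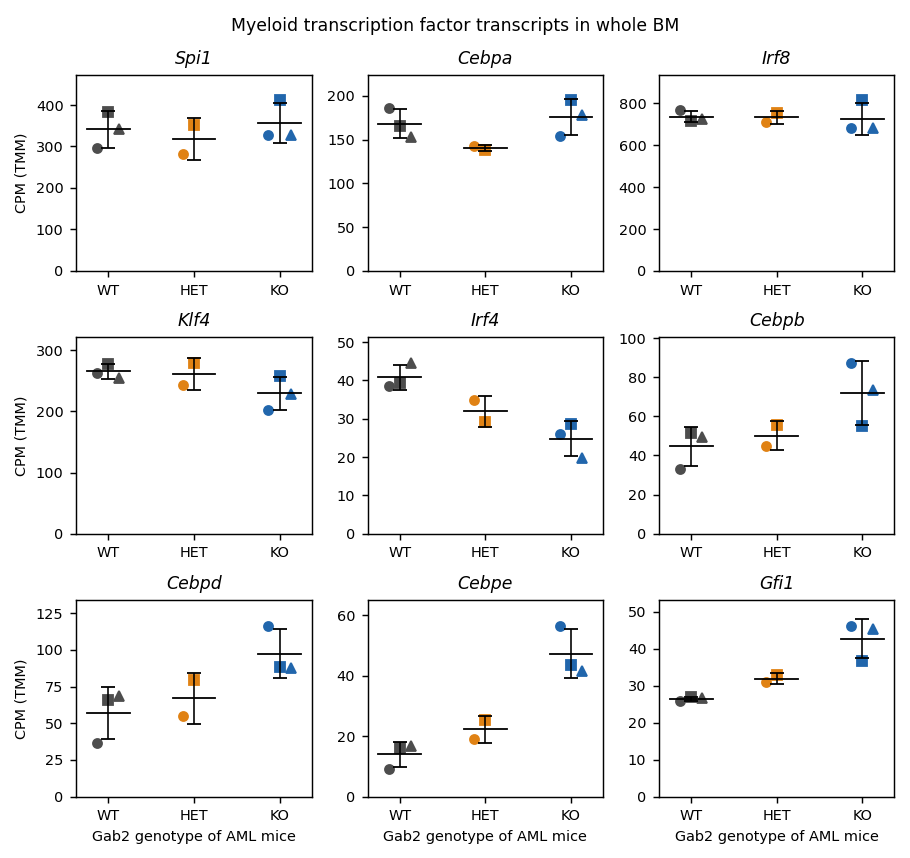
TMM-normalised CPM (y axis, from 0) of each gene in each mouse, by Gab2 genotype (x axis). Circles, squares and triangles are replicates 1, 2 and 3, and the horizontal line and bars give the mean ± SD. For Cebpe, the AML KO mice lie at 41.6 to 56.5 CPM and the AML WT mice at 9.25 to 16.6 CPM, whereas the 3 groups overlap for Irf8.

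Spi1 encodes PU.1, the ETS factor required for all monocytes and granulocytes. The gene (ENSMUSG00000002111) lies on chromosome 2 from 91082390 to 91115756 (GRCm38). Its level was 295.8, 384.1 and 343.1 CPM in AML WT, 281.9 and 353.0 CPM in AML HET and 328.2, 411.7 and 328.6 CPM in AML KO mice. The 3 groups overlapped, with the highest AML WT mouse above all but a single AML KO mouse. Relative to AML WT, the log2 fold change in AML KO was 0.06 (SE 0.153, 95% interval −0.28 to 0.41, edgeR adjusted p = 0.838).

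Cebpa encodes C/EBPα, which is needed for the step from common myeloid to granulocyte-monocyte progenitors. It is on chromosome 7 from 35119293 to 35121928 (ENSMUSG00000034957), 62.0 Mb from Gab2. AML WT mice had 185.6, 165.8 and 152.5 CPM, AML HET mice had 142.4 and 137.7 CPM, and AML KO mice had 154.1, 195.0 and 178.5 CPM. AML KO and AML WT mice overlapped, and both AML HET mice were below all others. Relative to AML WT, AML KO had a log2 fold change of 0.07 (SE 0.128, interval −0.22 to 0.35, adjusted p = 0.793). AML HET had −0.26 (SE 0.145, adjusted p = 0.99). The lower AML HET values were therefore not distinguishable from AML WT after adjustment.

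Cebpe encodes C/EBPε, the C/EBP protein restricted to granulocytes, which switches on the genes of secondary granules. It lies on the minus strand of chromosome 14 from 54710360 to 54712174 (ENSMUSG00000052435). Its level was 9.25, 16.0 and 16.6 CPM in AML WT, 19.1 and 25.3 CPM in AML HET and 56.5, 43.6 and 41.6 CPM in AML KO mice. No groups overlapped, and the order WT, HET, KO held for all 8 mice. AML KO exceeded AML WT by 1.76 on the log2 scale (SE 0.24, interval 1.23 to 2.30), with an edgeR adjusted p of 0.00898. The adjusted p stayed under 0.05 when any single mouse was left out, from 0.0107 to 0.0499, the highest without AML WT replicate 2.

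Gfi1 encodes a zinc-finger repressor that favours the granulocyte over the monocyte fate. It lies on the minus strand of chromosome 5 from 107716657 to 107726036 (ENSMUSG00000029275). AML WT mice had 25.8, 26.9 and 26.6 CPM, AML HET mice had 31.0 and 32.9 CPM, and AML KO mice had 46.2, 36.6 and 45.2 CPM. Again no groups overlapped, and the AML WT mice were close together (26.4 ± 0.55 CPM, SD, n = 3). AML KO exceeded AML WT by 0.69 on the log2 scale (SE 0.129, interval 0.40 to 0.98, edgeR adjusted p = 0.0268). This call was less stable than its direction. Leaving out any of 7 of the 8 mice raised the adjusted p to between 0.0569 and 0.116, and only the omission of AML KO replicate 2 kept it under 0.05, at 0.0181.

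Cebpb and Cebpd encode C/EBPβ and C/EBPδ, which respond to cytokines and infection. Cebpb (chromosome 2, 167688915 to 167690418, ENSMUSG00000056501) was at 33.1, 51.2 and 49.7 CPM in AML WT, 45.0 and 55.3 CPM in AML HET and 87.3, 54.8 and 73.3 CPM in AML KO mice. All AML KO mice were above all AML WT mice, with AML KO replicate 2 only slightly so. The difference was 0.69 on the log2 scale (SE 0.215, interval 0.21 to 1.17, edgeR adjusted p = 0.171), which did not pass the threshold. Cebpd (chromosome 16, 15887286 to 15891031, ENSMUSG00000071637) was at 36.8, 66.0 and 68.5 CPM in AML WT, 54.8 and 79.4 CPM in AML HET and 116.5, 88.1 and 88.0 CPM in AML KO mice. AML WT replicate 1 had the lowest Cebpb, Cebpd and Cebpe values of all mice, and AML KO replicate 1 the highest. Cebpd differed by 0.77 on the log2 scale (SE 0.247, interval 0.22 to 1.33, adjusted p = 0.179), larger in size than that of Gfi1 but with a wider spread between mice.

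Irf8 encodes the interferon regulatory factor that commits progenitors to monocytes and dendritic cells and holds back the granulocyte fate. It lies on chromosome 8 from 120736358 to 120756694 (ENSMUSG00000041515). The level was 766.2, 717.8 and 725.0 CPM in AML WT, 711.4 and 755.3 CPM in AML HET and 680.9, 815.6 and 681.2 CPM in AML KO mice. The ranges of the groups overlapped, but AML KO replicates 1 and 3 were below all AML WT and AML HET mice and replicate 2 was above them. The log2 fold change in AML KO was −0.02 (SE 0.122, interval −0.29 to 0.25, edgeR adjusted p = 0.938), and its sign turned with upper-quartile normalisation (0.0041). The interval leaves room for a fold between 0.816 and 1.19.

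Klf4 encodes a zinc-finger factor of inflammatory monocytes that acts below PU.1 and Irf8. It is found on the minus strand of chromosome 4 from 55527143 to 55532466 (ENSMUSG00000003032). Its level was 261.9, 277.9 and 255.0 CPM in AML WT, 242.9 and 278.9 CPM in AML HET and 202.3, 256.9 and 228.4 CPM in AML KO mice. A single AML KO mouse, replicate 2, reached the range of the AML WT mice. AML KO differed from AML WT by a log2 fold change of −0.21 (SE 0.125, interval −0.49 to 0.07, edgeR adjusted p = 0.375).

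Irf4 encodes a relative of Irf8 that binds DNA together with PU.1 and acts in dendritic cells, macrophages and B cells. The gene is on chromosome 13 from 30749226 to 30766976 (ENSMUSG00000021356). AML WT mice had 38.4, 39.4 and 44.5 CPM, AML HET mice had 34.8 and 29.0 CPM, and AML KO mice had 25.9, 28.6 and 19.8 CPM. The 3 groups were separated in the order opposite to that of Cebpe. AML KO differed from AML WT by a log2 fold change of −0.72 (SE 0.162, interval −1.08 to −0.35), and its adjusted p of 0.0585 from edgeR's quasi-likelihood test missed the threshold. DESeq2 gave an adjusted p of 0.00252 for Irf4, and the edgeR value was 0.0408 without AML KO replicate 2. These were the exceptions. The edgeR adjusted p stayed above 0.05 in 7 of 8 fits that left out a mouse, up to 0.18 without AML KO replicate 3. Among the 9 other settings, 8 also stayed above 0.05, up to 0.204 with the replicate block in edgeR.

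**Figure D2:**
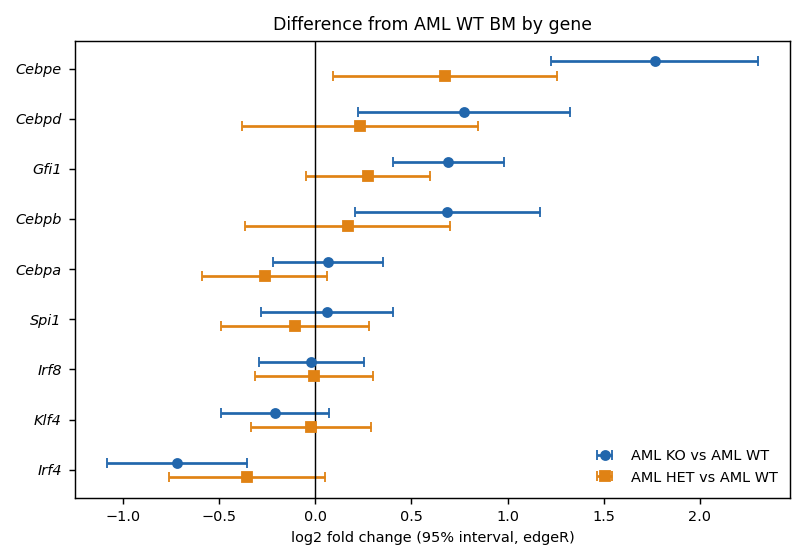
Log2 fold change (x axis) of each gene relative to AML WT, in AML KO (circles) and in AML HET (squares), with 95% intervals from the edgeR fit. Cebpe lies farthest to the right at 1.76 for AML KO, Irf4 farthest to the left at −0.72, and all but the Cebpe interval include 0 for AML HET.

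Loss of a single Gab2 allele was not accompanied by a called change in these genes. Between AML HET and AML WT, edgeR called 0 of the 9 genes (0.0225% of all genes were called), as did DESeq2 and limma-voom, and Cebpe alone had an unadjusted p under 0.05 (2.47% of all genes). Cebpe was 22.2 ± 4.38 CPM in AML HET (SD, n = 2) and 13.9 ± 4.07 CPM in AML WT BM (n = 3), which differ by 0.68 on the log2 scale (SE 0.26, edgeR adjusted p = 0.99). The groups did not overlap for 4 genes, with Cebpe and Gfi1 higher and Cebpa and Irf4 lower in AML HET (18.1% of all genes did not overlap). The difference was 0.27 for Gfi1 (SE 0.144) and −0.35 for Irf4 (SE 0.182).

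Between AML KO and AML HET, edgeR and limma-voom called 0 of the 9 genes (0.0% of all genes were called by edgeR). DESeq2 called Cebpe with an adjusted p of 0.0263, and 77 of all 13305 genes. Cebpe, Gfi1 and Cebpa had an unadjusted p under 0.05 (5.86% of all genes). Their log2 fold changes were 1.09 (SE 0.269), 0.42 (SE 0.146) and 0.33 (SE 0.145). The AML KO mice did not overlap the AML HET mice for 5 genes, Cebpa, Cebpd, Cebpe and Gfi1 being higher and Irf4 lower (24.2% of all genes did not overlap). These comparisons share mice with the comparison of AML KO and AML WT BM.

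Levels were compared between genes as CPM per kb of merged exons. In AML WT BM the order was Spi1 (126.5 ± 16.4, SD, n = 3), Irf8 (104.4 ± 3.70), Klf4 (86.9 ± 3.86), Cebpa (63.7 ± 6.32), Cebpb (29.7 ± 6.69), Cebpd (15.2 ± 4.70), Cebpe (11.2 ± 3.28), Irf4 (8.32 ± 0.67) and Gfi1 (8.30 ± 0.17). Over the mice, the ranges of neighbouring genes overlapped from Cebpd downward and were separate above it. The factors that open the myeloid program and the monocyte factors Irf8 and Klf4 were the most abundant, while Irf4 was among the lowest, near Cebpe and Gfi1. In AML KO BM the first 5 genes kept their places, with overlap between Klf4 and Cebpa and between Cebpb and Cebpe. Cebpe took the place above Cebpd, at 38.1 ± 6.49 against 26.0 ± 4.38 CPM per kb, and its lowest AML KO mouse (33.5) was above the highest of Cebpd (31.1). Per kb, Cebpe was below Cebpd in each of the 3 AML WT mice and above it in each of the 3 AML KO mice. This change of place depends on the division by length (1241 bases for Cebpe, 3746 for Cebpd). In CPM, Cebpd stayed above Cebpe in AML KO BM, at 97.5 ± 16.4 against 47.25 ± 8.05 (SD, n = 3). Irf4 became the lowest of the 9, at 5.06 ± 0.92 CPM per kb, without overlap with Gfi1 (13.4 ± 1.65).

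**Figure D3:**
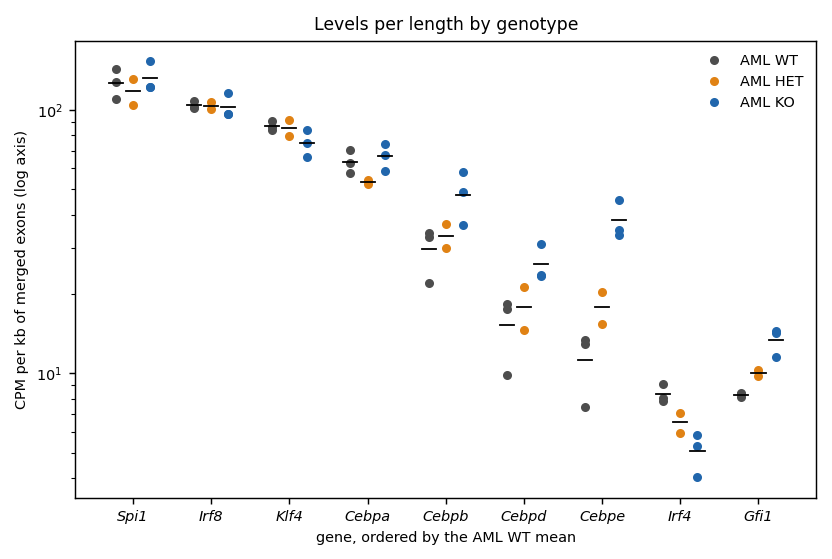
CPM per kb of merged exons (y axis, log scale) of each gene in each mouse, with the group mean as a line and genes ordered by the AML WT mean. The order is kept among the 5 most abundant genes, and Cebpe rises from 11.2 CPM per kb in AML WT to 38.1 in AML KO BM, past Cebpd.

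The balance between monocytic and granulocytic factors was expressed as a log2 ratio of 2 counts in the same library, which is independent of library scaling. The ratio of Irf8 to Gfi1 was 4.89, 4.74 and 4.77 in AML WT, 4.52 and 4.52 in AML HET and 3.88, 4.47 and 3.91 in AML KO mice. The mean was lower by 0.71 in AML KO than in AML WT mice, without overlap. The ratio of Irf8 to Cebpe was 5.77 ± 0.52 (SD, n = 3) in AML WT, 5.06 ± 0.22 (n = 2) in AML HET and 3.95 ± 0.32 (n = 3) in AML KO mice. The ratio of Klf4 to Cebpe was 4.29 ± 0.47, 3.56 ± 0.14 and 2.28 ± 0.39. The ratio of Cebpe to Cebpa was −3.63 ± 0.61, −2.67 ± 0.32 and −1.90 ± 0.39. In each of these 4 ratios the AML HET mice lay between the other groups with no overlap. Each of the 4 holds Cebpe or Gfi1, whose own levels already separate the 3 groups, so they are not separate observations. The other genes in them differed less, with AML KO over AML WT log2 fold changes of −0.02 (Irf8), 0.07 (Cebpa) and −0.21 (Klf4). How often ratios of other gene pairs lack overlap was not computed. For all 4 the exact two-sided permutation test between AML KO and AML WT gave p = 0.1, the smallest that 3 mice against 3 allow (adjusted p = 0.125 over 5 ratios). The ratio of Cebpa to Spi1 was −1.02 ± 0.30 in AML WT and −1.02 ± 0.12 in AML KO mice (exact p = 1.0), and the mice overlapped.

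**Figure D4:**
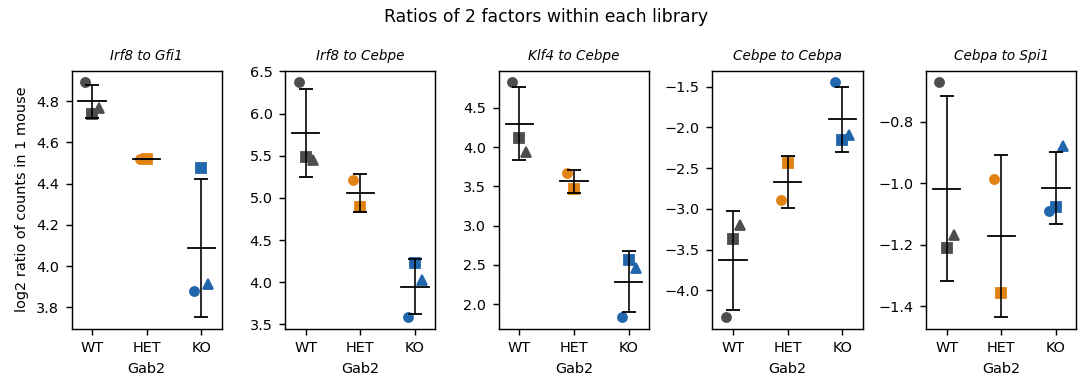
Log2 ratio of the counts of 2 genes within each library (y axis, a separate scale per panel) by Gab2 genotype, with the mean ± SD. Mice of the 3 genotypes are separate in 4 panels, and they overlap for Cebpa to Spi1, where both means are −1.02.

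Genes that these factors are known to control were examined as lists, which were chosen with earlier results of these data known. The secondary granule list holds 12 genes taken as targets of C/EBPε. It also includes genes that are not of secondary granules, such as Padi4, Mmp9, Itgb2l and Lyz2. Of the 12, 9 were called higher in AML KO than in AML WT BM and none lower. Across all genes, 1.77% were called higher. The log2 fold change was positive for 11 of the 12 and negative for 1, with a median of 1.30. Chil3, a chitinase-like protein, went from 348.1 ± 34.7 CPM (SD, n = 3) to 846.8 ± 91.5 (n = 3), a log2 fold change of 1.28 (edgeR adjusted p = 0.00392). Lcn2, which binds bacterial siderophores, went from 144.1 ± 54.1 to 618.7 ± 95.1 CPM (2.10, adjusted p = 0.0071). Cd177, a neutrophil surface protein, went from 93.2 ± 20.5 to 231.5 ± 32.7 CPM (1.31, adjusted p = 0.00884). Without AML WT replicate 2, 1 of the 12 was called, and without AML KO replicate 1 or replicate 3, 4 were. Primary granule genes, made earlier in maturation, were higher in mean for all 6 measured, with a median of 0.35. edgeR and limma-voom called 0 of them and DESeq2 called 2, against 730 of all 13305 genes called by DESeq2. An unadjusted edgeR p under 0.05 was found for 3 of the 6 (17.7% of all genes). Prtn3 and Mpo, which encode a serine protease and myeloperoxidase, had log2 fold changes of 0.61 (adjusted p = 0.101) and 0.41 (adjusted p = 0.188), and Ms4a3, a membrane protein of granulocyte-monocyte progenitors, had 0.41 (adjusted p = 0.213).

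Genes downstream of Irf8, Irf4 and Klf4 in monocytes and dendritic cells had lower values for 14 of 15, with a median log2 fold change of −0.67. Of the 15, 3 were called, all lower (0.323% of all genes were called lower). These were Mrc1, the mannose receptor (171.3 ± 19.2 to 93.9 ± 7.97 CPM, −0.87, edgeR adjusted p = 0.0156), Ciita, the activator of MHC class II genes (60.1 ± 6.56 to 23.4 ± 8.89 CPM, −1.36, adjusted p = 0.0233), and Itgax, the integrin CD11c (42.4 ± 11.6 to 19.8 ± 4.20 CPM, −1.10, adjusted p = 0.0457). Leaving out AML KO replicate 1, AML KO replicate 3 or AML WT replicate 2 left 0 called, while 5 were called without AML KO replicate 2 and 6 without AML WT replicate 1. Among growth factor receptors and other targets of PU.1 and C/EBPα, edgeR and limma-voom called 0 of 12 and DESeq2 called 1. DESeq2 called 730 of all 13305 genes. The median log2 fold change of the 12 was −0.15. Of the 12, 2 had an unadjusted edgeR p under 0.05 (17.7% of all genes did). The smallest p belonged to Fcgr1, the high-affinity IgG receptor, at −1.10 (adjusted p = 0.0829). Csf2rb, the common chain of cytokine receptors, was at −0.32 (adjusted p = 0.267) and Tlr4, the endotoxin receptor, at −0.50 (adjusted p = 0.305).

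Among 10 genes known to be repressed by Gfi1, the median log2 fold change was 0.29. Meis1, a partner of Hox proteins, was at 0.56 (edgeR adjusted p = 0.123), and Egr2, a monocyte factor, at −1.52 (adjusted p = 0.208). Among 40 partner factors, edgeR called 1, which was higher (1.77% of all genes were called higher). limma-voom called 0 and DESeq2 4 (DESeq2 called 730 of all 13305 genes), and the median was −0.12. The gene called by edgeR was Gfi1b, the relative of Gfi1 in red cells and megakaryocytes. It rose from 2.91 ± 0.42 to 9.88 ± 4.94 CPM (1.76, adjusted p = 0.0374). That call was lost in 7 of 8 fits that left out a mouse, AML KO replicate 2 being the exception. Jun, a subunit of the AP-1 factor, was at −0.88 (adjusted p = 0.0906), and Ets1, an ETS factor of lymphoid cells, at 0.71 (adjusted p = 0.124). Some genes stand in more than 1 list: Irf8 is also among the genes repressed by Gfi1, and Egr2, Nab2, Id2, Csf1r, Batf3 and Nr4a1 are shared.

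**Figure D5:**
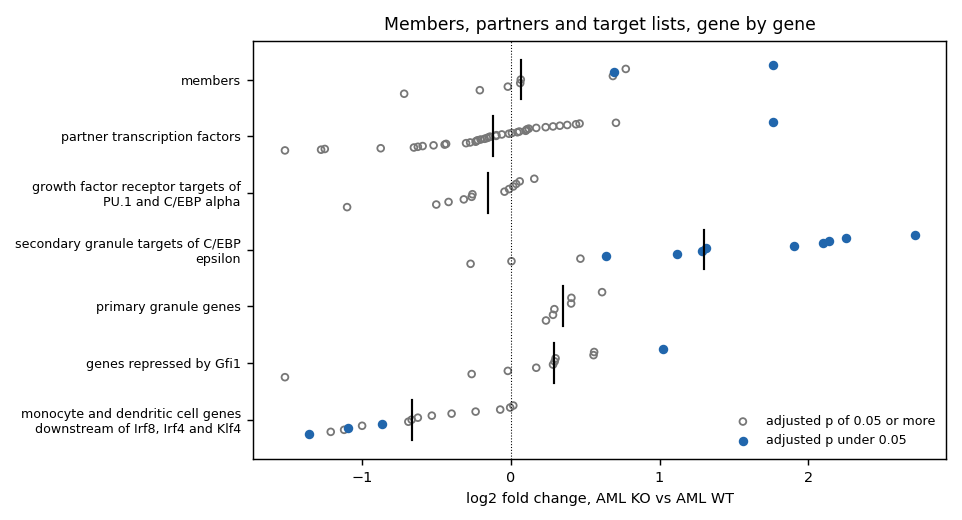
Log2 fold change of AML KO relative to AML WT (x axis) for every gene in each list (rows), filled where the edgeR adjusted p is under 0.05, with the list's median as a vertical line. Filled points lie to the right in the secondary granule list (9 of 12) and to the left in the monocyte and dendritic cell list (3 of 15).

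Markers of several cell types moved with these differences. The summed level of 10 neutrophil markers was 1040 to 3810 CPM in AML WT and 8187 to 14120 CPM in AML KO mice, alongside Cebpe, Gfi1, Cebpb and Cebpd. Of these markers 5 were called higher, and Mmp8, Mmp9, Cd177, Camp and Ltf are also in the secondary granule list. Across all genes, 1.77% were called higher and 0.323% lower. The summed level of 8 dendritic cell markers was 307.3 to 535.7 CPM in AML WT and 242.1 to 299.5 CPM in AML KO mice (1 called, lower), alongside Irf4. For 9 macrophage markers it was 454.1 to 536.1 and 281.6 to 449.8 CPM (2 called higher, 1 lower). Although this sum was lower, 6 of the 9 had a positive and 3 a negative log2 fold change (median 0.26). For 8 monocyte markers the summed level was 6502 to 8977 and 4557 to 7223 CPM. Of these 8, edgeR called 0, and 2 had an unadjusted p under 0.05 (17.7% of all genes did). The called dendritic cell marker, Itgax, and the macrophage marker called lower, Mrc1, are the same genes as in the list downstream of Irf8, Irf4 and Klf4, which also shares Batf3, Ccr2, Ly6c2, Cd14 and F13a1 with these marker lists. In whole BM, fewer or more cells of a type cannot be told apart from less or more RNA per cell, and the part of cell composition in the differences of the transcription factors was not tested.

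Erythroid markers were at 200.5 to 284.8 CPM in AML WT and 1258 to 4281 CPM in AML KO mice (9 of 10 called higher), and megakaryocyte markers at 33.6 to 36.9 and 211.6 to 317.7 CPM (8 of 8 called higher), alongside Gfi1b. Leaving these genes out of the TMM normalisation left the log2 fold change of Gfi1 at 0.69. Basophil and mast cell markers were at 34.4 to 46.2 and 124.5 to 265.4 CPM (3 of 4 called higher), eosinophil markers at 11.5 to 14.2 and 37.1 to 54.3 CPM (2 of 4 called higher), and stem and progenitor cell markers at 442.9 to 497.6 and 590.2 to 676.0 CPM (2 of 9 called higher). Across all genes, 1.77% were called higher. B cell markers were at 41.0 to 78.7 and 58.9 to 86.6 CPM, and T and NK cell markers at 103.2 to 133.8 and 125.4 to 151.6 CPM. None of these lymphoid markers was called by edgeR. An unadjusted p under 0.05 was found for 2 of the 9 T and NK cell markers and 0 of the 8 B cell markers (17.7% of all genes).

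For 3 of the 9 genes, a gene of the opposite strand that overlaps them is also in the table, and the use of strand in counting is not given in the sources used here. Tmem189, which overlaps Cebpb, had a log2 fold change of 0.33 in AML KO (edgeR adjusted p = 0.362), and Spidr, which overlaps Cebpd, had −0.14 (adjusted p = 0.623). Tmem189 was at 1414 to 2174 counts per mouse against 1283 to 2669 for Cebpb. In CPM both were lowest in AML WT replicate 1 and highest in AML KO replicate 1. Spidr was at 1187 to 2359 counts against 1498 to 3562 for Cebpd. A430072P03Rik, which overlaps the start of Gfi1, was at 13 to 58 counts per mouse against 850 or more for Gfi1. Irf8 also overlaps a gene model of the same strand (Gm20388) and Cebpa an antisense model (Gm45091), neither of which is in the table. Reads from such pairs may be assigned to either gene or to neither.

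The genes whose pattern over the 8 mice was nearest were found by the root mean square (RMS) difference of centred log2(CPM + 1) values. For Cebpe these were Lin28a (RMS 0.139) and H1fx (0.142), and for Gfi1 they were Hip1r (0.0699) and Bik (0.0748). Cebpb was nearest to Dgcr6 (0.0575) and Prkag1 (0.0631), and Cebpd to Mrpl52 (0.0736) and Ccdc85b (0.0829). Irf4 was nearest to Sdc4 (0.0745) and Tubb2b (0.0943), and Klf4 to Ece1 (0.0409) and BC017158 (0.0428). The nearest to Irf8 were Nmt1 (0.0228) and Txndc5 (0.0272), to Spi1 Lgals1 (0.052) and Vps72 (0.0542), and to Cebpa Kctd1 (0.0472) and Pik3cb (0.0504). Cebpe had the largest distances of the 9 and also the widest range over the mice on the log2 scale. No other member was among the 2 nearest genes of any of them.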

How the data were processed

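RNA of whole BM from 8 mice (3 AML WT, 2 AML HET, 3 AML KO) was sequenced on an Illumina HiSeq4000 by the authors, who deposited raw counts per gene without normalization. Per the submitters' processing notes, Trimmomatic 0.36 and STAR 2.5.2b were used with build mm10. The counting tool, its use of strand, its annotation and any low-count filter are not given in the sources used here. The lowest sum over the 8 mice of any gene in the table is 106 counts. Gene symbols and positions are those of GENCODE M21, which holds 13266 of the 13305 Ensembl identifiers (39 were not found).

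Counts were normalized with TMM and tested with edgeR 4.0.16 in R 4.3.3 (quasi-likelihood, robust, genotype as the only term, all mice in 1 fit), with Benjamini-Hochberg adjustment over all genes, a threshold of 0.05 and 95% intervals. filterByExpr removed 0 genes. The scripts were tested on simulated data. Ratios used log2 counts with 0.5 added and exact permutation tests over mice (scipy 1.17.1). Depth was 28009258 to 39266815 counts per mouse, and the part of counting error in the spread of each gene was not tested. Alternatives were DESeq2 1.42.0, limma-voom (limma 3.58.1), RLE and upper-quartile factors, TMM without erythroid and megakaryocyte genes, no filter, a minimum of 50 counts, the replicate number as a block, only the compared groups, and each mouse left out.

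The members and lists were chosen with earlier results of these data known. Named were all 9 members, the 3 genes of each of 6 target and partner lists with the smallest p between AML KO and AML WT, the 2 nearest genes of each member and Gab2. The 11 marker lists are given by their summed levels. A gene of the list repressed by Gfi1 that meets this rule is not reported here. The overlapping genes and the promoter motifs were chosen after the values were seen.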

Additional observations from a re-analysis of the deposited data

How the results depend on the processing

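Across all results and alternatives, 876 values were classed as the same, 52 as weaker, 10 as stronger, 57 as moved and 25 as reversed. A fold change was the same if it kept its direction and its side of the threshold, and a ratio if it kept its direction. A count of called genes was the same if it stayed within a fixed factor of the main count, and moved if not. The cause of these changes was not tested. With a replicate block, edgeR called 0 of the 9 factors between AML KO and AML WT, with adjusted p of 0.071 for Cebpe and 0.136 for Gfi1, and 19 genes in all. The block also left 0 genes repressed by Gfi1, 0 partner factors, 0 monocyte and dendritic cell genes and 1 gene of the secondary granule list called. Between AML HET and AML WT it left 0 of all genes called. The deviations of mice with the same replicate number correlated at −0.591, −0.139 and −0.18 between AML WT and AML KO, at 0.1 and 0.371 between AML WT and AML HET and at −0.16 and −0.0489 between AML HET and AML KO. Not every pair was above 0.1, and the main fit was kept without a block. Each deviation was taken from a mean of only 2 or 3 mice, which ties the values within a group to each other. The correlations therefore cannot decide whether mice of the same number share anything more, and the sources used here do not say. With only the 2 groups compared, 1 factor (Cebpe), 0 partner factors, 5 genes in all for AML HET against AML WT and 3 for AML KO against AML HET were called. DESeq2 called 730 genes between AML KO and AML WT. It called 59 for AML HET against AML WT and 77 for AML KO against AML HET. It called 1 factor between AML KO and AML HET and, between AML KO and AML WT, 4 partner factors, 2 genes repressed by Gfi1, 1 growth factor receptor target, 2 primary granule genes and 6 monocyte and dendritic cell genes. limma-voom called 0 partner factors and 1 gene in all between AML HET and AML WT. With at least 50 counts in every mouse, 151 genes were called between AML KO and AML WT and 1 between AML HET and AML WT.

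Leaving out each mouse in turn, the factors called between AML KO and AML WT were 1 to 3, with Irf4 called lower without AML KO replicate 2, and the genes in all were 40 to 370, the fewest without AML WT replicate 2. They were 1 to 5 for AML HET against AML WT and 0 to 4 for AML KO against AML HET. Called in the lists were 0 to 2 partner factors, 0 to 2 genes repressed by Gfi1, 1 to 8 genes of the secondary granule list and 0 to 6 monocyte and dendritic cell genes. Some log2 fold changes turned sign. The largest of them in the main fit was 0.23, for Cebpd between AML HET and AML WT. Between AML KO and AML WT, those that turned ranged from −0.057 to 0.16 for Spi1, −0.014 to 0.15 for Cebpa and −0.11 to 0.024 for Irf8. Between AML HET and AML WT they ranged from −0.27 to 0.050 for Spi1, −0.0058 to 0.31 for Cebpb, −0.058 to 0.48 for Cebpd, −0.050 to 0.037 for Irf8 and −0.13 to 0.074 for Klf4. Between AML KO and AML HET, Irf8 ranged from −0.11 to 0.035. The log2 ratio of Cebpa to Spi1 ranged from −0.095 to 0.17. Among the other settings, upper-quartile normalisation turned Irf8 (0.0041 for AML KO and 0.018 for AML HET against AML WT) and Klf4 (0.00089 for AML HET against AML WT), and Irf8 was also turned by the minimum of 50 counts (0.0058) and the 2 groups alone (0.00070) for AML HET against AML WT and by the replicate block (0.010) for AML KO against AML HET.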
